A study of Gallus gallus with 16 samples.

Results

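The mesenchyme that fills a growing feather, called the pulp, was compared between 2 kinds of body feather of the White leghorn rooster. The comparison was defined by its samples alone, with no gene picked beforehand: 2 libraries of dorsal plume pulp were set against 2 libraries of breast plume pulp, out of 16 libraries in the series, and 13246 of the 15696 genes in the table were tested. Dorsal plumes have a narrow vane and breast plumes a wide one, and the question was which pulp genes differ between them. Each library held RNA pooled from 25 proximal follicles, whose epithelium had been peeled off and sequenced separately. The labels give 1 breed and no treatment for all libraries, and neither their age nor the number of birds behind a pool is given in the sources used here. The study calls the 2 libraries of a group biological replicates, and the labels put 1 of each group in batch I and the other in batch II.

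The pulp of a growing feather holds fibroblasts, blood vessels, nerves and blood cells inside a cylinder of epithelium, and its base includes the dermal papilla, which instructs the epithelium. Dermal fibroblasts from different parts of the body keep a record of their position in the HOX, T-box and other homeobox genes they transcribe. The pulp also releases WNT, BMP and FGF ligands, their antagonists and retinoic acid, which act on the epithelium as it splits into a rachis and barbs.

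Levels are given as TPM, a length-corrected share of all transcripts, made from the deposited RPKM values by rescaling them to the same sum of 1000000 in each library. The 4 pulp libraries rested on 23422936 and 24767999 alignments for dorsal and 25325932 and 26133536 for breast plumes. Replicates correlated at r = 0.992 in dorsal and 0.986 in breast pulp across genes, and libraries of different tracts at 0.936 to 0.947. Breast replicate 2 held more keratinocyte RNA than its partner, with a level higher than in breast replicate 1 for 38 of 39 keratinocyte markers (median log2 difference 0.83). Dorsal replicate 2 was above dorsal replicate 1 for 30 of the 39 (median log2 difference 0.19). The endothelial, mural, leukocyte and erythrocyte marker sums were higher in breast replicate 1 than in breast replicate 2. Fold changes are log2 differences of TPM + 1, dorsal over breast, with their standard error (SE), and adjusted p values come from limma with Benjamini-Hochberg adjustment over all genes tested. The words rose and fell are used only for an adjusted p under 0.05.

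In dorsal pulp 1718 genes rose and 2017 fell relative to breast pulp, which is 28.2% of the genes tested, or 13.0% higher and 15.2% lower. None of the 3735 called genes had libraries that overlapped between the tracts, so their direction was necessarily the same in both batches. Without regard to the test, the libraries of the tracts did not overlap at 66.9% of all genes tested. Among the called genes, 690 rose and 553 fell by at least 1 log2 unit. The median gene was displaced by only -0.06 on the log2 scale. The number of calls dropped to 2086, of which 1129 were higher, when dorsal replicate 1 was left out.

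The largest rise of all belonged to an unnamed Ensembl gene, ENSGALG00000027770, chosen after its values were seen, with 422 and 291 TPM in dorsal and 0.000975 and 0 TPM in breast pulp. CYTL1, ANGPTL5, AQP5, SPINK5 and CBLN2 were among the named genes with the largest rises. CYTL1, a small secreted cytokine-like protein, was at 2061 and 1805 TPM in dorsal pulp, against 17.2 and 21.2 TPM in breast pulp (log2 fold change 6.59, SE 0.67, adjusted p = 2.0e-04). ANGPTL5, an angiopoietin-like secreted protein, stood at 151 and 109.8 TPM in dorsal pulp, against 1.42 and 2.20 TPM in breast pulp (log2 fold change 5.54, SE 0.27, adjusted p = 5.3e-06). AQP5 is a water channel and SPINK5 an inhibitor of serine proteases. AQP5 measured 113 and 115 TPM in dorsal pulp, against 1.17 and 0.973 TPM in breast pulp (log2 fold change 5.79, SE 0.16, adjusted p = 8.8e-07). SPINK5 measured 126 and 95.9 TPM in dorsal and 1.32 and 1.16 TPM in breast pulp (log2 fold change 5.63, SE 0.18, adjusted p = 1.4e-06). CBLN2, a cerebellin that organises synapses, was listed at 0 in both breast libraries and had 44.4 and 52.6 TPM in dorsal pulp. The dorsal and breast libraries did not overlap in these genes. For the named ones this was fixed by the rule that picked them. Libraries without overlap were also found for each of the 3735 called genes and for 66.9% of all genes tested.

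Large rises were also seen in CNTN1, NCAM2, LRRN3, GAL and NTS. The adhesion protein CNTN1 reached 166 and 135 TPM in dorsal pulp, against 3.08 and 2.51 TPM in breast pulp (log2 fold change 5.32, SE 0.26). NCAM2, a neural cell adhesion molecule, had 63.8 and 56.1 TPM in dorsal and 1.47 and 1.55 TPM in breast pulp (log2 fold change 4.60). LRRN3, a leucine-rich repeat membrane protein of neurons, had 50.4 and 43.5 TPM in dorsal and 0.561 and 0.269 TPM in breast pulp (log2 fold change 5.09). The neuropeptide galanin, GAL, rose as well, with 74.6 and 59.1 TPM in dorsal pulp, against 0.920 and 1.49 TPM in breast pulp. Another neuropeptide, neurotensin (NTS), stood at 28.4 and 22.8 TPM in dorsal and 0.898 and 1.27 TPM in breast pulp. These 5 genes rose with adjusted p values of 5.2e-06, 4.1e-06, 2.9e-06, 4.4e-06 and 5.1e-06. AVPR2, a vasopressin receptor best known from the kidney, was at 31.5 and 22.9 TPM in dorsal and 0.139 and 0.209 TPM in breast pulp (adjusted p = 7.0e-05).

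GDF10, THRSPB, THRSP, SPINK2, GFRA4 and HRASLS were among the named genes with the largest falls. GDF10, a BMP-related ligand, had the largest drop among named genes, with 4.62 and 4.45 TPM in dorsal pulp, against 191 and 145 TPM in breast pulp (log2 fold change -4.92, SE 0.19, adjusted p = 3.0e-06). The pair THRSPB and THRSP, relatives of the thyroid hormone responsive spot 14 protein of fat synthesis, fell together. THRSPB was at 16.2 and 24.5 TPM in dorsal and 556 and 592 TPM in breast pulp and THRSP at 2.53 and 1.61 TPM in dorsal and 26.8 and 25.5 TPM in breast pulp. SPINK2, another serine protease inhibitor of the Kazal type, moved opposite to SPINK5, with 1.71 and 1.95 TPM in dorsal pulp, against 37.3 and 37.6 TPM in breast pulp (log2 fold change -3.77, SE 0.18, adjusted p = 5.1e-06). GFRA4, a co-receptor for ligands of the GDNF family, fell to 1.93 and 1.28 TPM, against 28.7 and 25.8 TPM in breast pulp, and HRASLS, a phospholipid-modifying enzyme, to 2.93 and 3.16 TPM, against 37.9 and 37.4 TPM. The feather keratin gene F-KER also met the rule for the largest drops, but its breast libraries were far apart, at 9.27 and 120.1 TPM, against 1.80 and 1.49 TPM in dorsal pulp. The level of F-KER was 73.9 and 23.5 TPM in dorsal and 1573 and 1531 TPM in breast epithelium, and its call was lost without dorsal replicate 1 (adjusted p = 0.116) or dorsal replicate 2 (adjusted p = 0.116).

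**Figure D1:**
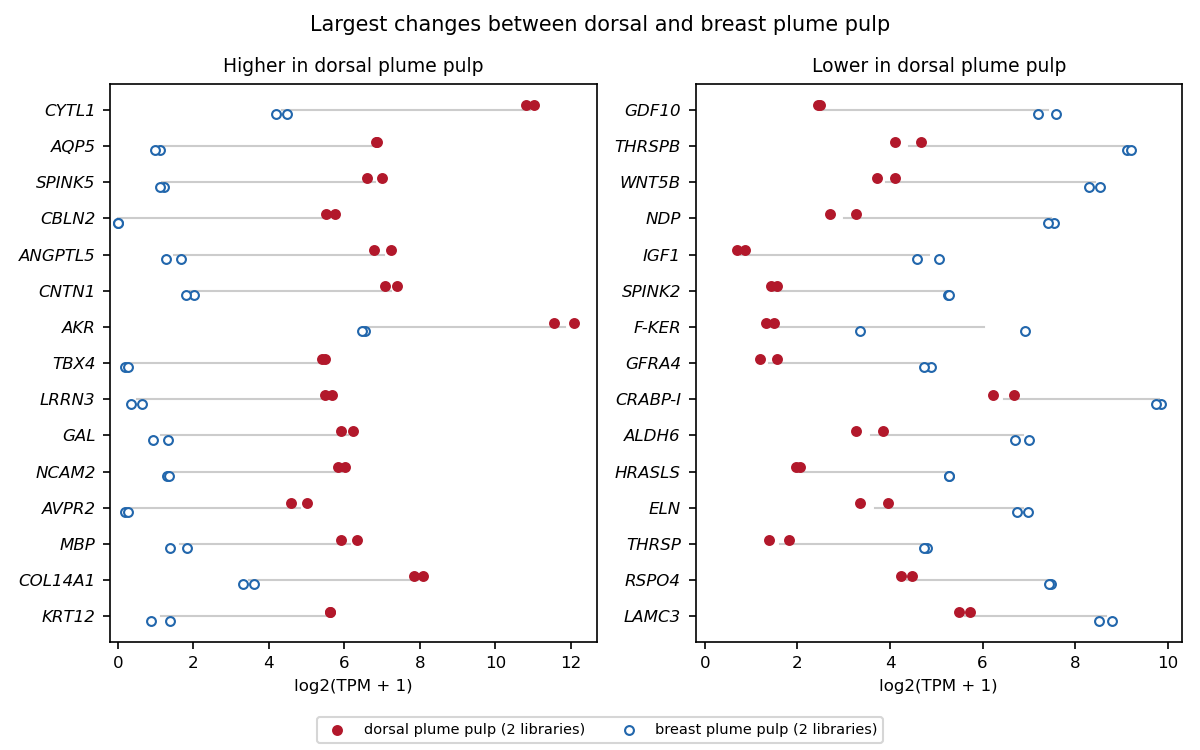
Level of the 15 named genes with the largest rise and the 15 with the largest fall in dorsal plume pulp, on a log2(TPM + 1) axis, with 1 point per library and a grey line joining the group means. The groups lie apart in every gene because the rule that picked the genes required it. The 2 libraries of a group lie close together for all genes but F-KER, whose breast points are at 9.27 and 120 TPM.

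The position genes differed between the tracts, with 63.6% of the HOX genes called, against 28.2% of all genes tested. Of 22 HOX genes tested, 4 rose and 10 fell, with a median log2 fold change of -0.56, and without dorsal replicate 1 these were 4 and 6. The 4 that rose were HOXB9, HOXC9, HOXC10 and HOXC11, which have high paralogue numbers, those used in posterior parts of the body. HOXC10 was by far the most abundant of them, with 158 and 189 TPM in dorsal pulp, against 24.6 and 27.9 TPM in breast pulp (log2 fold change 2.68, SE 0.15, adjusted p = 8.2e-06). HOXC9 stood at 12.1 and 11.97 TPM in dorsal and 0.639 and 0.919 TPM in breast pulp (log2 fold change 2.88, SE 0.19, adjusted p = 2.0e-05), and HOXB9 at 12.8 and 11.6 TPM in dorsal and 0 and 0.153 TPM in breast pulp (log2 fold change 3.62, SE 0.16, adjusted p = 4.1e-06). HOXC11, named with the following genes after the values were seen, was at 6.46 and 6.82 TPM in dorsal and 2.86 and 3.40 TPM in breast pulp (log2 fold change 0.89).

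Each HOX gene that fell had a paralogue number of 8 or less, as the genes used nearer the head do. HOXB5, whose call held with any 1 library left out, was at 32.7 and 32.7 TPM in dorsal pulp, against 103 and 103 TPM in breast pulp (log2 fold change -1.63, SE 0.17, adjusted p = 2.2e-04). Within the HOXA cluster, HOXA2, HOXA4, HOXA5 and HOXA6 fell, with log2 fold changes of -0.72, -0.90, -1.02 and -1.14, and HOXC6 fell by 0.78. HOXB4 was at 31.5 and 35.7 TPM in dorsal and 134 and 131 TPM in breast pulp (log2 fold change -1.95, SE 0.53, adjusted p = 0.025). Its call was lost without any 1 of the 4 pulp libraries, where its log2 fold change was -1.86 to -2.04. The scatter of the epithelium libraries is part of this SE, while the pulp libraries of each tract lay close together at the levels given above. A fit with the pulp libraries alone was also run, but its value for HOXB4 is not given here. The calls of HOXB3, HOXD4 and HOXD8 were also lost without 1 or another library, with adjusted p values of up to 0.164, 0.092 and 0.084. In all, 8 HOX genes did not pass the test, among them HOXA7, HOXB6, HOXD9 and HOXD10. Of these, HOXB6, HOXD9 and HOXD10 share their paralogue numbers with genes that were called. HOXD9 had 18.2 and 20.5 TPM in dorsal and 21.2 and 17.1 TPM in breast pulp, so its libraries overlapped between tracts.

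The T-box genes held a reciprocal pair. TBX4, the factor of the hindlimb, had 44.0 and 41.7 TPM in dorsal pulp, against 0.147 and 0.212 TPM in breast pulp (log2 fold change 5.22, SE 0.15, adjusted p = 9.2e-07). TBX5, the factor of the forelimb, had 0.0608 and 0 TPM in dorsal pulp, against 6.27 and 6.03 TPM in breast pulp (log2 fold change -2.80, SE 0.14, adjusted p = 6.0e-06). Each was thus near 0 where the other was present. PITX1, an upstream hindlimb homeobox factor chosen after its values were seen, was listed at 0 in both breast libraries and had 3.11 and 3.07 TPM in dorsal pulp. Of 10 T-box genes tested, 4 rose and 4 fell, which is 80% called, against 28.2% of all genes tested. EOMES and TBX20 rose, EOMES with 47.2 and 44.4 TPM in dorsal and 3.93 and 3.77 TPM in breast pulp and TBX20 with 13.4 and 12.9 TPM in dorsal and 1.08 and 1.38 TPM in breast pulp. TBX15, a factor of dorsal skin in the mouse, was abundant on both sides, with 52.8 and 60.8 TPM in dorsal pulp, against 69.0 and 53.3 TPM in breast pulp (log2 fold change -0.10, adjusted p = 0.75).

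**Figure D2:**
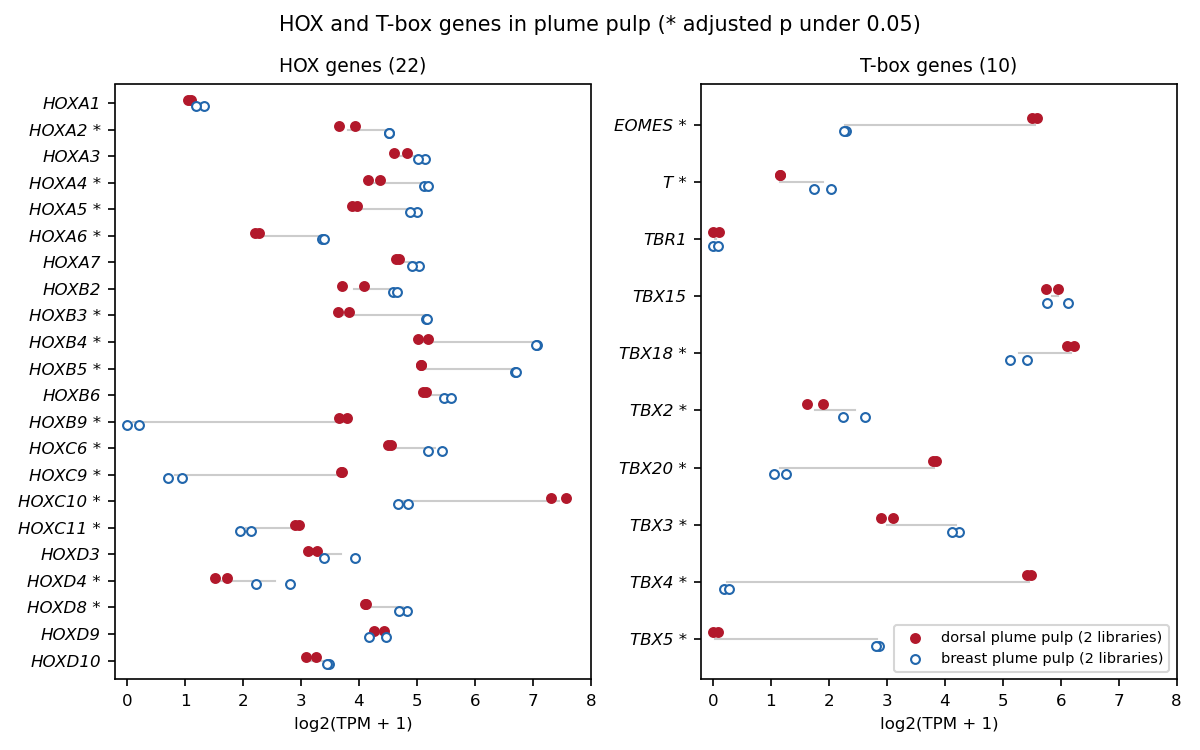
Level of all 22 HOX and 10 T-box genes tested, by library, on a log2(TPM + 1) axis, where an asterisk marks an adjusted p under 0.05. The dorsal points lie right of the breast points for HOXB9, HOXC9, HOXC10 and HOXC11 and left of them for the called genes with lower paralogue numbers. TBX4 and TBX5 lie on opposite sides.

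Among other patterning factors 27 of 88 genes rose and 19 fell, which is 52.3% called, against 28.2% over all genes, and 25 rose and 8 fell without dorsal replicate 1. The homeobox genes EN1 and ALX1 were close to 0 in 1 of the tracts. EN1, an engrailed factor, was at 23.0 and 22.7 TPM in dorsal pulp, against 0.0625 and 0.120 TPM in breast pulp (log2 fold change 4.45, SE 0.15, adjusted p = 1.4e-06). ALX1, a factor of face and limb mesenchyme, was listed at 0 in both dorsal libraries and at 21.6 and 18.8 TPM in breast pulp. MSX1, listed as GHOX-7, rose to 90.6 and 98.8 TPM in dorsal pulp, against 5.595 and 7.67 TPM in breast pulp. Its relative MSX2 fell, with 30.7 and 37.1 TPM in dorsal and 53.9 and 118 TPM in breast pulp (log2 fold change -1.21, SE 0.29, adjusted p = 0.016), a call that was lost without dorsal replicate 1 (adjusted p = 0.13) or dorsal replicate 2 (adjusted p = 0.067). The higher MSX2 value belonged to breast replicate 2, which also held the most keratinocyte RNA. MSX2 itself was at 428 and 361 TPM in dorsal and 379 and 379.6 TPM in breast epithelium, and the part of epithelial RNA in its fall was not tested.

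EYA2, a transcriptional co-activator and phosphatase, rose to 77.8 and 71.2 TPM in dorsal pulp, against 8.18 and 8.03 TPM in breast pulp (log2 fold change 3.05, SE 0.15, adjusted p = 5.2e-06). The paired-box genes PAX1 and PAX9, factors of the sclerotome, rose with it. PAX1 stood at 31.9 and 47.2 TPM in dorsal and 12.8 and 10.5 TPM in breast pulp, and PAX9, listed as PAX-9, at 3.47 and 3.96 TPM in dorsal and 0.417 and 0.266 TPM in breast pulp. GSC, the goosecoid factor, was at 41.6 and 38.0 TPM in dorsal and 4.20 and 3.28 TPM in breast pulp (log2 fold change 3.11, SE 0.22, adjusted p = 3.0e-05), and the mesenchymal factor TWIST1 rose by 0.96 on the log2 scale. Among zinc finger genes, ZIC4, a gene of dorsal mesoderm, rose and SALL1 and OSR2 fell. ZIC4 had 3.61 and 3.89 TPM in dorsal and 0.271 and 0.249 TPM in breast pulp. SALL1 had 1.80 and 1.91 TPM in dorsal and 13.5 and 10.2 TPM in breast pulp, and OSR2 had 1.89 and 2.65 TPM in dorsal and 12.7 and 10.1 TPM in breast pulp. Forkhead and SOX genes had few calls, with 2 of 12 lower and 0 higher by limma, or 4 lower and 1 higher at an unadjusted p under 0.05. By limma the called share was 16.7%, all of it lower, against 28.2% called and 15.2% lower over all genes tested.

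WNT ligands reach frizzled receptors, R-spondins amplify their signal through LGR receptors, and secreted antagonists block it. The called share of the WNT pathway genes was 55.6%, against 28.2% of all genes tested. Of 54 WNT pathway genes tested, 16 rose and 14 fell (median log2 fold change 0.02), with 15 and 8 without dorsal replicate 1 and 12 and 9 without dorsal replicate 2. Of 17 ligands 4 rose and 9 fell, and 4 and 5 without dorsal replicate 1. WNT11 and WNT5B went opposite ways. WNT11, a ligand of the non-canonical branch, was at 878 and 754 TPM in dorsal pulp, against 140.3 and 116 TPM in breast pulp (log2 fold change 2.66, SE 0.27, adjusted p = 1.9e-04). WNT5B, also mainly non-canonical, was at 12.1 and 16.2 TPM in dorsal pulp, against 372 and 313 TPM in breast pulp (log2 fold change -4.51, SE 0.17, adjusted p = 2.1e-06). Norrin, the product of NDP and a ligand of frizzled that is no WNT, was at 5.52 and 8.59 TPM in dorsal and 186 and 168 TPM in breast pulp (log2 fold change -4.49, SE 0.25, adjusted p = 8.2e-06).

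The R-spondins were split as well. RSPO4 fell to 17.8 and 21.2 TPM in dorsal pulp, against 178 and 172 TPM in breast pulp (log2 fold change -3.11, SE 0.17, adjusted p = 8.3e-06). RSPO3 and RSPO2, both chosen after their values were seen, moved apart, with RSPO3 at 0.337 and 0.253 TPM in dorsal and 6.83 and 7.56 TPM in breast pulp and RSPO2 at 14.3 and 15.2 TPM in dorsal and 4.10 and 3.63 TPM in breast pulp. Their receptor LGR5 rose to 95.4 and 79.0 TPM in dorsal pulp, against 14.9 and 17.7 TPM in breast pulp (log2 fold change 2.35, SE 0.16, adjusted p = 2.6e-05), and LGR6 rose by 0.81. The called share of the WNT receptors was 21.1%, against 28.2% of all genes tested. Of 19 receptors, 3 rose and 1 fell, with 2 and 0 without dorsal replicate 2 and 3 and 3 without either dorsal epithelium library.

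WNT antagonists were split. WIF1, which binds WNT proteins directly, stood at 39.3 and 27.7 TPM in dorsal and 5.76 and 9.46 TPM in breast pulp and the frizzled-related FRZB at 616 and 665 TPM in dorsal and 254 and 205 TPM in breast pulp, both higher in dorsal pulp. DKK3 fell to 83.9 and 80.8 TPM in dorsal pulp, against 302 and 272 TPM in breast pulp (log2 fold change -1.78, SE 0.13). SFRP1 fell to 174 and 202 TPM, against 393 and 323 TPM. Genes that WNT signalling itself induces were mostly higher. SP5 had 53.96 and 73.4 TPM in dorsal and 7.31 and 4.18 TPM in breast pulp. AXIN2 had 89.7 and 92.6 TPM in dorsal and 59.2 and 63.3 TPM in breast pulp, and NKD1 had 84.5 and 78.6 TPM in dorsal and 48.3 and 40.2 TPM in breast pulp. In all, 4 of the 7 target and feedback genes rose and 1 fell.

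BMP and TGF-beta ligands bind type I and type II receptors, and chordin, follistatin and gremlin relatives hold them away from these receptors. In this family the balance was downward, with 9 of 57 genes higher and 22 lower and a median log2 fold change of -0.26. The called share was 54.4%, against 28.2% of all genes tested. Among ligands 3 of 16 rose and 8 fell. These were 1 and 7 without dorsal replicate 1, 1 and 6 without breast replicate 1 and 1 and 8 without either breast epithelium library. Besides GDF10, INHBA, the beta A subunit of activin, fell to 20.0 and 19.7 TPM in dorsal pulp, against 111 and 97.3 TPM in breast pulp (log2 fold change -2.33, SE 0.20, adjusted p = 7.4e-05). Dorsalin, listed as DSL1, had 0.573 and 1.07 TPM in dorsal and 22.7 and 19.3 TPM in breast pulp (log2 fold change -3.60), and BMP4 had 25.8 and 29.1 TPM in dorsal and 67.0 and 64.2 TPM in breast pulp (log2 fold change -1.23).

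The antagonists did not move as 1 group. Follistatin, FST, which traps activins, rose to 224.2 and 219.9 TPM in dorsal pulp, against 51.9 and 43.0 TPM in breast pulp (log2 fold change 2.21, SE 0.14, adjusted p = 1.6e-05), while its relative FSTL3 fell to 6.66 and 9.65 TPM, against 31.0 and 37.6 TPM. CHRDL1, a chordin-like BMP inhibitor, was at 0.929 and 1.12 TPM in dorsal and 18.1 and 14.2 TPM in breast pulp (log2 fold change -3.07, SE 0.19, adjusted p = 1.4e-05). HTRA3, a protease that inhibits TGF-beta signalling, was at 5.07 and 4.71 TPM in dorsal and 43.7 and 35.5 TPM in breast pulp. GREM1, a BMP antagonist of the dermis, was at 237 and 277 TPM in dorsal pulp, against 143 and 99.0 TPM in breast pulp, higher in both dorsal libraries, but it missed the threshold with an adjusted p of 0.082 (log2 fold change 1.10, SE 0.41). With the pulp libraries alone its adjusted p was 0.023.

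Of 14 receptors 2 rose and 3 fell, which is 35.7% called, against 28.2% of all genes tested. ACVR2A and ACVR2B, type II receptors of activin, rose by 0.54 and 0.96, and ACVRL1 and ENG, which serve in endothelial cells, fell by 1.07 and 1.37. Of the genes these pathways induce, ID1 was at 38.7 and 46.7 TPM in dorsal and 101 and 96.4 TPM in breast pulp and SMAD9 at 9.02 and 8.73 TPM in dorsal and 20.7 and 19.1 TPM in breast pulp, both lower in dorsal pulp. MSX1, also a target of BMP in many tissues, was higher, as given above.

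**Figure D3:**
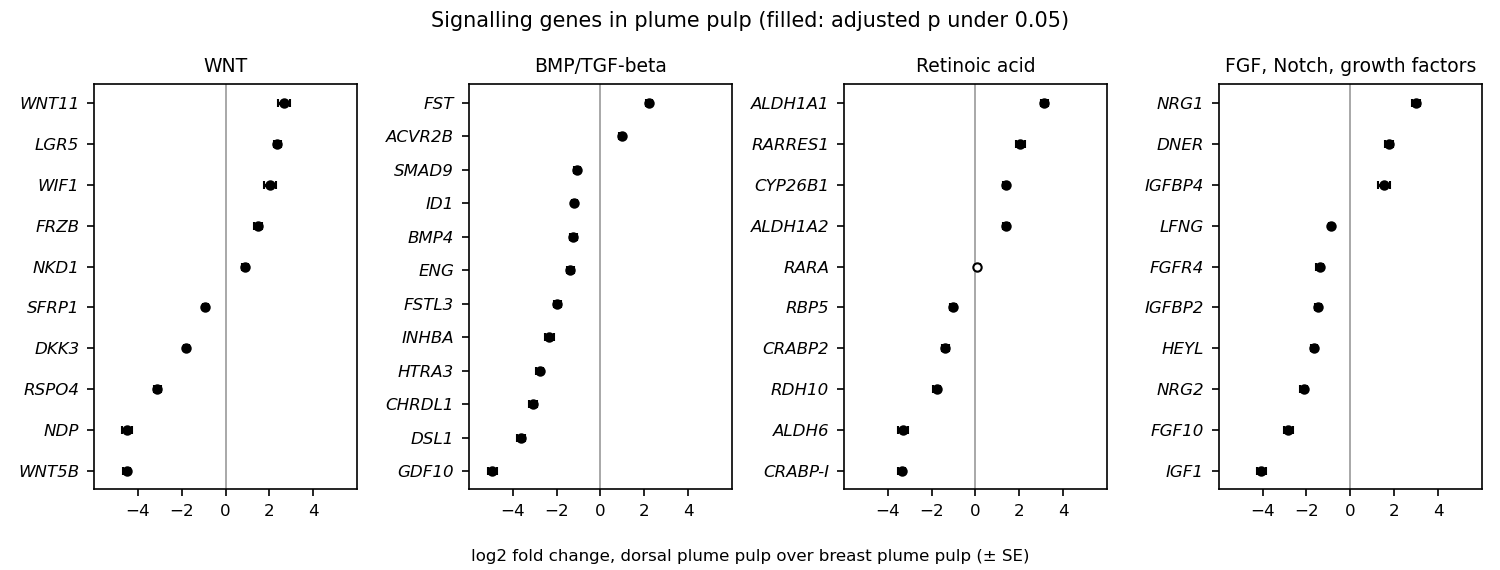
Log2 fold changes of a chosen part of the signalling genes named in the text, dorsal over breast plume pulp, with bars of 1 SE, in 4 panels, where an open point marks an adjusted p of 0.05 or more. GREM1, RARB and RXRA, which did not pass the test, are among the named genes not drawn. Points left of 0 are lower in dorsal pulp, as for WNT5B, GDF10, CRABP-I and IGF1, and RARA sits at 0.08.

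Retinoic acid is made from retinol in 2 steps by retinol and retinaldehyde dehydrogenases, broken down by CYP26 enzymes, and carried in cells by CRABP proteins. Of 25 pathway genes tested, 4 rose and 9 fell (median -0.17), which is 52% called, against 28.2% of all genes tested. The 3 retinaldehyde dehydrogenases did not share a direction. ALDH1A3, listed as ALDH6, was the dominant one in breast pulp and fell, with 8.66 and 13.5 TPM in dorsal pulp, against 128 and 103 TPM in breast pulp (log2 fold change -3.29, SE 0.22, adjusted p = 2.2e-05). ALDH1A1 rose to 18.1 and 13.9 TPM in dorsal pulp, against 0.973 and 0.868 TPM in breast pulp (log2 fold change 3.14, SE 0.17, adjusted p = 8.2e-06), and ALDH1A2 had 4.41 and 4.44 TPM in dorsal and 1.19 and 0.973 TPM in breast pulp. RDH10, which carries out the first step, fell by 1.77 on the log2 scale, with 6.77 and 8.41 TPM in dorsal and 30.2 and 26.2 TPM in breast pulp.

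CYP26B1, the only breakdown enzyme tested, rose, with 219.8 and 225.5 TPM in dorsal pulp, against 90.1 and 78.8 TPM in breast pulp. The binding proteins all pointed the other way where they were called, with 5 of 8 lower and 0 higher by limma, or 6 and 0 at an unadjusted p under 0.05. CRABP1, listed as CRABP-I, had 73.7 and 101 TPM in dorsal and 921 and 864 TPM in breast pulp, and CRABP2 had 203 and 263 TPM in dorsal and 627 and 573 TPM in breast pulp. RBP5 and RBP3, which bind retinol, fell by 1.03 and 1.99. No receptor passed the test: RARA was at 77.5 and 91.8 TPM in dorsal and 77.6 and 82.1 TPM in breast pulp, RARB at 15.6 and 16.5 TPM in dorsal and 14.4 and 12.3 TPM in breast pulp and RXRA at 25.8 and 32.8 TPM in dorsal and 31.9 and 30.7 TPM in breast pulp, with adjusted p values of 0.67, 0.28 and 0.58 by limma, and none of the 4 receptors tested had an unadjusted p under 0.05. The responsive genes RARRES1 and TGM2 moved apart, RARRES1 with 526 and 466 TPM in dorsal and 126 and 113 TPM in breast pulp and TGM2 with 7.89 and 8.63 TPM in dorsal and 23.4 and 18.4 TPM in breast pulp.

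The called share of the FGF pathway genes was 48.1%, against 28.2% of all genes tested. Of 27 FGF pathway genes 2 rose and 11 fell, with a median log2 fold change of -0.06, as over all genes tested. These were 1 and 6 without dorsal replicate 1, 1 and 8 without dorsal replicate 2 or breast replicate 2 and 1 and 10 without either breast epithelium library. FGF10, the mesenchymal ligand of limb and skin buds, fell to 3.28 and 3.71 TPM in dorsal pulp, against 32.4 and 28.9 TPM in breast pulp (log2 fold change -2.82, SE 0.19, adjusted p = 2.2e-05). The receptors FGFR4 and FGFRL1 fell by 1.40 and 0.89, and ETV1, an FGF-induced factor listed as ER81, fell by 0.93. Of 16 Notch pathway genes 2 rose and 6 fell, with 1 and 4 without dorsal replicate 1, 1 and 6 without dorsal replicate 2 or breast replicate 1 and 1 and 5 without either breast epithelium library. With all libraries 50% of the Notch pathway genes were called, against 28.2% of all genes tested. The ligand DLL1 was at 15.6 and 19.8 TPM in dorsal and 47.2 and 35.5 TPM in breast pulp. LFNG, which adds sugars to Notch, was at 121 and 139 TPM in dorsal and 254 and 229.7 TPM in breast pulp. The target HEYL was at 15.04 and 18.4 TPM in dorsal and 57.5 and 52.5 TPM in breast pulp. All 3 were lower in both dorsal libraries. DNER, an atypical ligand, rose to 4.67 and 4.65 TPM, against 0.813 and 0.563 TPM. The hedgehog pathway had 1 of 18 genes higher and 3 lower, and 1 and 1 without dorsal replicate 1, breast replicate 1 or either breast epithelium library. Without breast replicate 2 these were 3 and 1. In the fit with all libraries 22.2% of the hedgehog genes were called, against 28.2% of all genes tested. SUFU, an intracellular inhibitor of the pathway, rose by 0.70 and BOC, a co-receptor, fell by 0.89.

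Among genes of PDGF, IGF, VEGF, EGF and HGF signalling, IGF1 had the lowest fold change, with 0.813 and 0.610 TPM in dorsal pulp, against 32.5 and 23.0 TPM in breast pulp (log2 fold change -4.05, SE 0.20, adjusted p = 5.6e-06). Its binding proteins moved both ways. IGFBP4 was at 2134 and 2074 TPM in dorsal pulp, against 757 and 681 TPM in breast pulp. IGFBP2 was at 113 and 150.4 TPM in dorsal and 392 and 331 TPM in breast pulp. Of 5 tested, 1 rose and 3 fell. IGFBP5 was at 30.8 and 38.5 TPM in dorsal and 125 and 122 TPM in breast pulp and IGFBP7 at 341 and 350.3 TPM in dorsal and 737 and 628 TPM in breast pulp. The neuregulins, ligands of ERBB receptors, moved apart, with NRG1 at 11.1 and 9.10 TPM in dorsal and 0.286 and 0.509 TPM in breast pulp (log2 fold change 2.99, SE 0.18, adjusted p = 1.2e-05) and NRG2 at 6.61 and 6.74 TPM in dorsal and 35.7 and 29.2 TPM in breast pulp (log2 fold change -2.12, SE 0.16, adjusted p = 3.7e-05). Over the whole list 10 of 58 genes rose and 19 fell, which became 5 and 13 without dorsal replicate 1 and 6 and 18 without breast replicate 2.

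COL1A2 and SPARC, both abundant matrix genes, did not pass the test, which does not show equal levels. Their libraries did not overlap between the tracts, as at 66.9% of all genes tested. The spread used by the test is shared with the epithelium libraries. A fit with the pulp libraries alone was also run, but its values for COL1A2 and SPARC are not given here. COL1A2 was at 6034 and 5908 TPM in dorsal pulp, against 5306 and 4511 TPM in breast pulp (log2 fold change 0.29, adjusted p = 0.73), and SPARC, a collagen-binding protein, at 6838 and 6917 TPM in dorsal pulp, against 9634 and 8886 TPM in breast pulp (adjusted p = 0.34). COL14A1, the chain of collagen XIV, which lies on the surface of fibrils, was at 268 and 228.4 TPM in dorsal pulp, against 8.98 and 11.2 TPM in breast pulp (log2 fold change 4.49, SE 0.15, adjusted p = 1.4e-06). COL2A1, the cartilage collagen, rose to 26.8 and 35.7 TPM in dorsal pulp, against 13.3 and 12.8 TPM in breast pulp. COL19A1 rose, at 2.90 and 3.27 TPM in dorsal and 0.161 and 0.246 TPM in breast pulp, and COL28A1 fell, at 1.20 and 1.83 TPM in dorsal and 8.24 and 6.54 TPM in breast pulp. The called share of the collagens was 43.8%, against 28.2% of all genes tested. Of 32 collagens 4 rose and 10 fell, with 3 and 3 without either dorsal library and 4 and 3 without breast replicate 1.

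The elastic fibre genes went in both directions. Tropoelastin, ELN, fell to 9.18 and 14.5 TPM in dorsal pulp, against 126 and 106 TPM in breast pulp (log2 fold change -3.21, SE 0.21, adjusted p = 2.1e-05). EFEMP1, a fibulin that sits on these fibres, rose to 926 and 819.6 TPM in dorsal pulp, against 119 and 138 TPM in breast pulp (log2 fold change 2.75, SE 0.11, adjusted p = 2.9e-06). LOX, the enzyme that cross-links collagen and elastin, was at 1086 and 880.4 TPM in dorsal and 234 and 219.9 TPM in breast pulp (log2 fold change 2.10, adjusted p = 0.003), and its relative LOXL3 at 35.1 and 41.9 TPM in dorsal and 101 and 88.8 TPM in breast pulp. SPON2, a spondin, rose with 117 and 102 TPM in dorsal and 9.95 and 8.73 TPM in breast pulp and vitronectin, VTN, fell with 6.42 and 7.48 TPM in dorsal and 51.1 and 46.9 TPM in breast pulp. Of 43 glycoproteins and elastic fibre genes 13 rose and 8 fell. Of 27 proteoglycans 10 rose and 4 fell, with 7 and 2 without dorsal replicate 1 or breast replicate 1 and 6 and 3 without dorsal replicate 2. Among the proteoglycans SPOCK1, SPOCK3, OMD and GPC5 rose, by 1.39, 2.30, 1.19 and 2.01.

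Laminins, the building blocks of basement membranes, had 1 of 11 higher and 5 lower, and 2 and 5 without either dorsal epithelium library. LAMC3 fell to 43.9 and 52.3 TPM in dorsal pulp, against 443 and 366 TPM in breast pulp (log2 fold change -3.04, SE 0.14, adjusted p = 4.6e-06). LAMA2 was at 126 and 122 TPM in dorsal and 319 and 234 TPM in breast pulp and LAMB1 at 329.9 and 356 TPM in dorsal and 689 and 583 TPM in breast pulp. Remodelling genes counted 12 higher and 19 lower of 62, with 5 and 14 without dorsal replicate 1, 4 and 15 without dorsal replicate 2 and 5 and 19 without breast replicate 2. The collagenase MMP13 rose to 102 and 87.5 TPM in dorsal pulp, against 21.0 and 21.2 TPM in breast pulp (log2 fold change 2.11, SE 0.19, adjusted p = 9.8e-05). ADAMTS9, a protease of large proteoglycans, fell to 23.5 and 27.8 TPM, against 109 and 89.9 TPM (log2 fold change -1.91, SE 0.18, adjusted p = 1.3e-04). The inhibitors PI15, PI16 and SPINT1 fell by 1.35, 1.90 and 0.98.

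Nerve-related genes did not move as 1 group. MBP, the myelin basic protein, was at 80.0 and 58.8 TPM in dorsal pulp, against 2.59 and 1.62 TPM in breast pulp (log2 fold change 4.50, SE 0.25, adjusted p = 8.3e-06), and PMP22, another myelin protein, at 101 and 105 TPM in dorsal and 65.9 and 61.4 TPM in breast pulp. The neurotrophin receptor NGFR and the growth cone protein STMN2 went the other way, NGFR with 1.01 and 1.21 TPM in dorsal and 16.6 and 12.7 TPM in breast pulp (log2 fold change -2.88, SE 0.17, adjusted p = 1.2e-05) and STMN2 with 7.20 and 14.1 TPM in dorsal and 53.2 and 40.2 TPM in breast pulp (log2 fold change -2.09, SE 0.27, adjusted p = 7.2e-04). Of 10 Schwann cell and nerve markers 3 rose and 5 fell. GAP43, GFRA3 and MAL were below 1 TPM in all 4 pulp libraries. The summed level of the list was 212 and 214 TPM in dorsal pulp, against 175 and 167 TPM in breast pulp, while the median log2 fold change of its members was -0.81, so sum and median differed in sign. The same list summed to 105 and 99.1 TPM in dorsal and 315 and 353 TPM in breast epithelium, so its RNA was not confined to pulp. The part of Schwann and nerve cells in the MBP result was not tested.

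Axon guidance genes counted 8 higher and 15 lower of 55, and 6 and 7 without dorsal replicate 1. The repulsive cue DRAXIN was the most abundant of those named, at 629.9 and 627 TPM in dorsal pulp, against 1325 and 1175 TPM in breast pulp (log2 fold change -0.99, SE 0.10, adjusted p = 2.0e-04). SEMA3G was at 97.1 and 117 TPM in dorsal and 269.7 and 263 TPM in breast pulp, while its relatives SEMA3D and SEMA5B rose by 1.13 and 1.05. The ephrin receptors EPHA7 and EPHB3 rose, EPHA7 to 5.33 and 5.95 TPM, against 1.24 and 0.986 TPM in breast pulp. ROBO3, a receptor of slit proteins, fell to 0.352 and 0.693 TPM, against 5.18 and 3.69 TPM in breast pulp.

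Hormone and melanocortin genes went in both directions, with 5 of 22 higher and 5 lower. These were 5 and 1 without dorsal replicate 1, 4 and 3 without dorsal replicate 2 or breast replicate 2 and 6 and 3 without breast replicate 1. ESR1, the oestrogen receptor alpha, stood at 192 and 190.2 TPM in dorsal pulp, against 29.2 and 22.2 TPM in breast pulp (log2 fold change 2.86, SE 0.22, adjusted p = 4.2e-05). PRLR, the prolactin receptor, stood at 85.6 and 71.7 TPM in dorsal and 18.7 and 12.9 TPM in breast pulp (log2 fold change 2.26, SE 0.21, adjusted p = 1.2e-04). POMC, the precursor of melanocortins and ACTH, was at 15.2 and 16.5 TPM in dorsal and 2.03 and 0.647 TPM in breast pulp, and MC4R, 1 of the receptors for its products, at 11.3 and 7.56 TPM in dorsal and 0.359 and 0.230 TPM in breast pulp (log2 fold change 2.99, SE 0.20, adjusted p = 2.1e-05). The growth hormone receptor GHR, named with the next 5 genes after the values were seen, fell to 23.8 and 27.0 TPM in dorsal pulp, against 45.3 and 46.1 TPM in breast pulp (log2 fold change -0.83, SE 0.12, adjusted p = 0.0011). NPY fell to 2.23 and 4.42 TPM, against 7.88 and 6.90 TPM in breast pulp. DIO2, STC1 and STC2 fell by 0.94, 0.97 and 0.95 on the log2 scale, and PENK rose by 2.05. Each of these 5 calls was lost without at least 1 library, with adjusted p values of up to 0.194. Among cytokines IL15 rose to 202 and 164 TPM, against 50.2 and 37.8 TPM in breast pulp, and IL34, a ligand of the macrophage receptor CSF1R, fell to 10.4 and 13.7 TPM, against 71.5 and 70.2 TPM. With CYTL1, 2 of 14 cytokine genes rose and 5 fell, with 2 and 2 without dorsal replicate 1 and 2 and 3 without breast replicate 1.

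Genes of fat storage were more often lower than higher in dorsal pulp, with 55% of the storage and uptake list called, against 28.2% of all genes tested. In the storage and uptake list 2 of 20 genes rose and 9 fell, with 1 and 7 without dorsal replicate 1 and 1 and 8 without dorsal replicate 2. PLIN1, which coats fat droplets, was at 0.896 and 0.616 TPM in dorsal and 5.83 and 7.27 TPM in breast pulp and PLIN3 at 119.6 and 147 TPM in dorsal and 478 and 444 TPM in breast pulp. DGAT2, which makes triglyceride, was at 2.44 and 1.94 TPM in dorsal and 10.7 and 9.83 TPM in breast pulp, and the fatty acid transporter CD36 at 17.7 and 18.4 TPM in dorsal and 53.7 and 47.3 TPM in breast pulp. ADIPOQ, the adipocyte hormone, was at 128 and 131 TPM in dorsal and 199.8 and 167 TPM in breast pulp (adjusted p = 0.21). The summed level of adipocyte markers was 293 and 338 TPM in dorsal pulp, against 647 and 578 TPM in breast pulp. In epithelium the same list summed to 201 and 202 TPM in dorsal and 176 and 173 TPM in breast plumes. By limma 6 of 9 tested were lower and 0 higher in dorsal pulp, the same counts as at an unadjusted p under 0.05, and CIDEC was below 1 TPM in all pulp libraries. Fewer of the 9 were called without dorsal replicate 1 or breast replicate 1 (median log2 fold change -0.79 and -0.71). More were called without dorsal replicate 2 (median -0.99). Most adipocyte markers also belong to the storage list, so the 2 counts are not separate. In bulk RNA fewer cells of a type and less RNA per cell cannot be told apart. The part of these cells in the fall of the fat genes was not tested. Of 30 genes of lipid synthesis 9 rose and 10 fell, with 7 and 5 without dorsal replicate 1, 8 and 6 without dorsal replicate 2 and 7 and 6 without breast replicate 2. Among enzymes of sterol synthesis in that list, SQLE rose by 0.92, and HMGCS1, FDFT1 and FDPS rose by 0.90, 0.79 and 0.72. These 4 genes were chosen after their values were seen.

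Few ribosomal protein and cell cycle genes passed the test, with called shares of 1.5% and 2.7%, against 28.2% of all genes tested. Of 66 ribosomal protein genes 1 rose by limma, RPLP1, and 0 fell, the same counts as at an unadjusted p under 0.05. Of 37 cell cycle genes 1 rose, AURKA, and 0 fell, or 4 and 0 at an unadjusted p under 0.05. The AURKA call was lost without any 1 of the 4 pulp libraries or without either breast epithelium library (adjusted p 0.062 to 0.165), and without either dorsal epithelium library 2 rose. Glycolysis and hypoxia genes counted 11 higher and 6 lower of 30, with 8 and 2 without dorsal replicate 1, 6 and 4 without dorsal replicate 2 and 7 and 4 without breast replicate 2. With all libraries the median log2 fold change of this list was -0.07, against -0.06 over all genes tested, so the list as a whole was not shifted upward. Among its members that rose, LDHA, lactate dehydrogenase A, was at 1306 and 1179 TPM in dorsal pulp, against 561 and 599 TPM in breast pulp (log2 fold change 1.10, SE 0.08, adjusted p = 4.4e-05), and EGLN1, the oxygen sensor that marks HIF for breakdown, at 183 and 164 TPM in dorsal and 72.0 and 71.1 TPM in breast pulp (log2 fold change 1.26, SE 0.12, adjusted p = 1.6e-04). HSPA5, the chaperone of the endoplasmic reticulum, rose to 1026 and 777 TPM, against 417 and 378 TPM in breast pulp. Immediate early and stress genes had 6 of 17 higher and 2 lower, 2 and 1 without dorsal replicate 1, 3 and 3 without breast replicate 1 and 4 and 1 without breast replicate 2. JUN, a subunit of the AP-1 factor, rose by 0.79.

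The fibroblast markers bore out the pulp label, with a summed level of 36458 and 35639 TPM in dorsal pulp, against 39518 and 33247 TPM in breast pulp, and at most 509.9 TPM in any epithelium library. Of 23 tested, 21.7% were called, against 28.2% of all genes tested. Among them 4 rose and 1 fell, with a median log2 fold change of 0.04 over the list. With batch as a block 4 rose and 5 fell, with 2 and 0 without either dorsal pulp library, 5 and 0 without breast replicate 1, 2 and 2 without breast replicate 2, 4 and 7 without either dorsal epithelium library and 4 and 0 without either breast epithelium library. VIMENTIN was at 4617 and 5220.2 TPM in dorsal and 5158 and 4399 TPM in breast pulp. The summed markers of vessels and blood were lower in both dorsal libraries than in both breast libraries. The summed endothelial markers were at 1024 and 1072 TPM in dorsal pulp, against 1817 and 1388 TPM in breast pulp, and 1 of 24 rose and 11 fell. That count was 1 and 4 without dorsal replicate 1, 0 and 5 without dorsal replicate 2, 1 and 5 without breast replicate 1, 0 and 12 without breast replicate 2 and 2 and 13 without either dorsal epithelium library. ENG was at 43.2 and 49.0 TPM in dorsal and 135 and 107 TPM in breast pulp and MMRN2 at 62.5 and 60.6 TPM in dorsal and 170.0 and 121 TPM in breast pulp, while CDH5, the cadherin of endothelial junctions, at 107 and 102 TPM in dorsal and 202 and 146 TPM in breast pulp, missed the threshold (adjusted p = 0.079, and 0.027 with batch as a block).

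Mural and smooth muscle markers summed to 739.5 and 765 TPM in dorsal pulp, against 1301 and 1001 TPM in breast pulp. Of 14 tested, 1 rose and 5 fell, which is 42.9% called, against 28.2% of all genes tested. Without dorsal replicate 1 they were 0 and 2, without dorsal replicate 2 0 and 3, without breast replicate 1 1 and 2, without breast replicate 2 0 and 8, and without either dorsal epithelium library 1 and 8. Leukocyte markers summed to 2292 and 2488 TPM in dorsal pulp, against 4200 and 3565 TPM in breast pulp, with 7 of 25 lower and 0 higher by limma, or 14 and 0 at an unadjusted p under 0.05, and 3 and 0 without dorsal replicate 1 or breast replicate 1. MARCO, a scavenger receptor of macrophages, was at 7.28 and 9.44 TPM in dorsal and 45.7 and 37.8 TPM in breast pulp (log2 fold change -2.20, SE 0.18, adjusted p = 6.2e-05), and ITGB2, the leukocyte integrin, at 18.6 and 19.0 TPM in dorsal and 42.9 and 36.6 TPM in breast pulp. Erythrocyte markers summed to 939 and 1058 TPM in dorsal pulp, against 1517 and 1224 TPM in breast pulp, with 2 of 11 lower and 0 higher by limma, or 5 and 0 at an unadjusted p under 0.05. That count was 1 lower and 1 higher without dorsal replicate 1, and 1 lower and 0 higher without any 1 of the 4 epithelium libraries. By limma, 28.2% of all genes tested were called and 15.2% were lower. The called share, all of it lower, was 28% for leukocyte and 18.2% for erythrocyte markers. No all-gene share is given for the unadjusted counts. Melanocyte markers were at 141 and 157 TPM in dorsal pulp, against 127 and 186 TPM in breast pulp. Skeletal muscle markers summed to 19.6 and 23.1 TPM in dorsal pulp, against 27.1 and 28.4 TPM in breast pulp, and 11 of 14 were below 1 TPM in all pulp libraries, while MYL2, a myosin light chain of heart and slow muscle, was at 49.2 and 45.8 TPM in dorsal pulp, against 0.985 and 1.57 TPM in breast pulp (log2 fold change 4.42, SE 0.20, adjusted p = 4.6e-06). The part of vessel and blood cells in the results above was not tested.

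**Figure D4:**
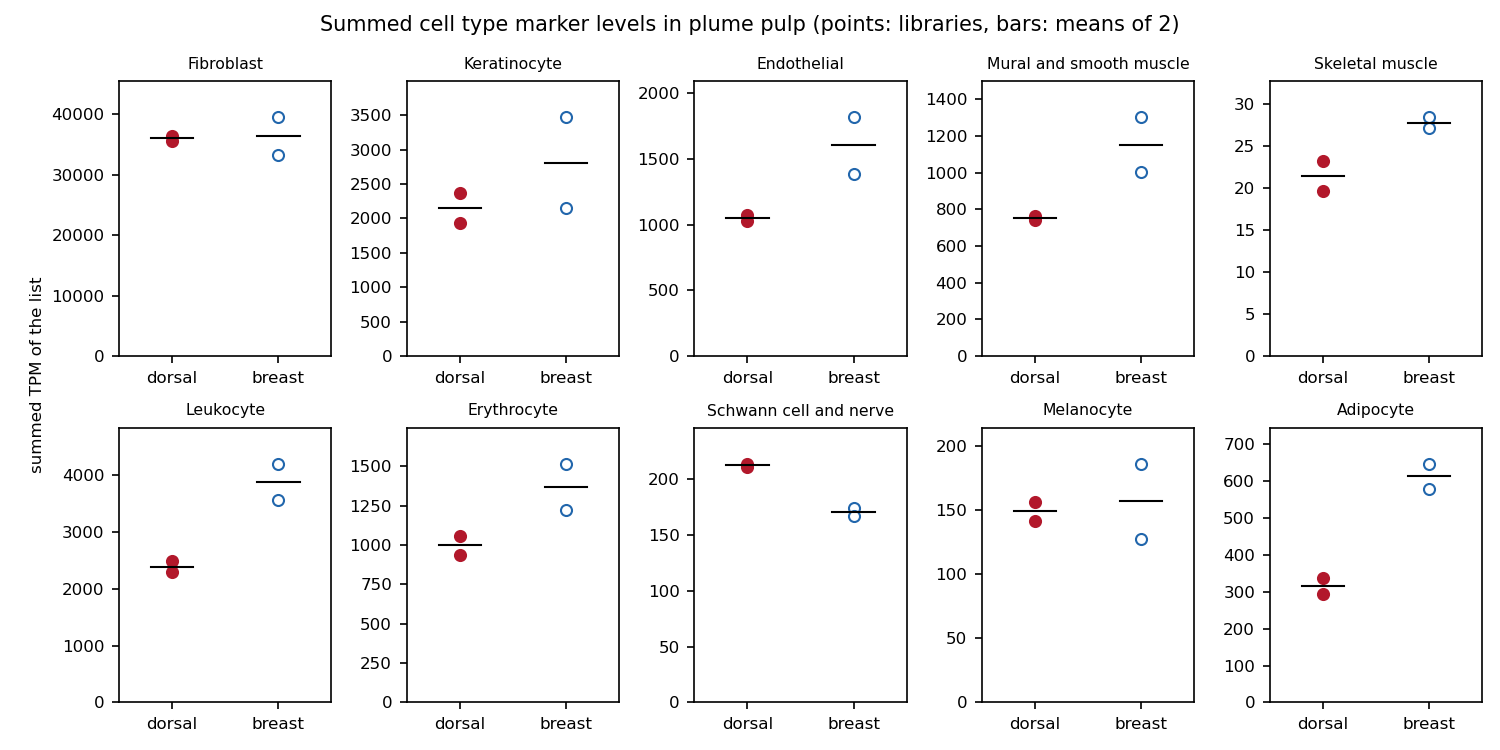
Summed TPM of 10 cell type marker lists in the pulp libraries, with points for libraries and bars for the mean of 2. Endothelial, mural, leukocyte, erythrocyte and adipocyte sums are lower in both dorsal libraries than in both breast libraries, the fibroblast sums overlap, and breast replicate 2 has the highest keratinocyte sum, 3473 TPM.

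Keratinocyte RNA was present in all pulp libraries. Its summed markers were 1935 and 2373 TPM in dorsal pulp, against 2154 and 3473 TPM in breast pulp, which is 10.7% and 13.2% of the level in dorsal epithelium and 13.8% and 22.3% of that in breast epithelium. Of 39 markers 33.3% were called, against 28.2% of all genes tested, and 2 rose and 11 fell. These were 1 and 3 without dorsal replicate 1, 1 and 5 without dorsal replicate 2, and 2 and 25 without breast replicate 1, which leaves breast replicate 2 alone. Without breast replicate 2 they were 5 and 6, and the median log2 fold change of the list was -0.17 in place of -0.49. KRT5 and KRT14, the keratins of basal cells, did not pass the test, with KRT5 at 409 and 512 TPM in dorsal and 297 and 522 TPM in breast pulp and KRT14 at 358 and 522 TPM in dorsal and 369 and 549 TPM in breast pulp. KRT6A fell to 51.9 and 48.8 TPM in dorsal pulp, against 309.6 and 417 TPM in breast pulp (log2 fold change -2.81, SE 0.18, adjusted p = 1.9e-05). Genes with a higher mean in epithelium than in pulp made up 19.2% of the 1718 that rose, 40.8% of the 2017 that fell and 45.7% of the rest. When genes higher in epithelium were left out, 2860 of 7751 genes were called. Beyond this count, the part of epithelial RNA in the falling genes was not tested.

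The peeled epithelium of the same follicles was used to see where the pulp differed from it. Between dorsal and breast epithelium 2337 genes were called, 17.6% of those tested, and 942 of them were also called in pulp, which is 40.3% of the epithelium calls and 25.2% of the pulp calls. Of these 942, 631 had the same sign in both tissues and 311 the opposite sign. The difference between the tissues itself passed the test at 3002 genes, or 22.7%. That count was 1836 without dorsal replicate 1 and 1805 and 1803 without either breast epithelium library.

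TBX4, EN1 and HOXC10 passed the test of the tissue difference. TBX4 was at 0 and 0 TPM in dorsal and 0.0735 and 0.224 TPM in breast epithelium (difference 5.41, SE 0.21, adjusted p = 2.5e-05). EN1 had a log2 fold change of 4.45 in pulp and -0.10 in epithelium (difference 4.55, SE 0.21, adjusted p = 2.5e-05), and HOXC10 was below 1 TPM in all 4 epithelium libraries (difference 2.26, SE 0.21, adjusted p = 2.4e-04). Of the 30 genes named for the largest changes in pulp, 8 were called in epithelium. WNT5B was at 38.7 and 48.0 TPM in dorsal and 39.1 and 33.9 TPM in breast epithelium, so its tract contrast was 0.24 there and -4.51 in pulp (difference -4.75, SE 0.23, adjusted p = 2.5e-05). ALDH1A3 was at 9.76 and 7.11 TPM in dorsal and 4.33 and 3.88 TPM in breast epithelium, which is opposite in sign to pulp (difference -4.16, SE 0.31, adjusted p = 1.0e-04). Some genes had opposite signs in pulp and epithelium. MYL2 was at 0.555 and 0.131 TPM in dorsal and 4.79 and 5.26 TPM in breast epithelium (difference 6.60, SE 0.28, adjusted p = 2.5e-05). KRT12 was at 1.76 and 1.74 TPM in dorsal and 4.99 and 3.92 TPM in breast epithelium (difference 5.47, SE 0.27, adjusted p = 2.5e-05). NTS was at 1.44 and 1.18 TPM in dorsal and 7.38 and 7.10 TPM in breast epithelium (difference 5.50, SE 0.24, adjusted p = 2.5e-05). All 3 were lower in both dorsal epithelium libraries. In pulp KRT12, a keratin of the cornea in mammals, was at 48.3 and 48.0 TPM in dorsal and 0.833 and 1.60 TPM in breast pulp.

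**Figure D5:**
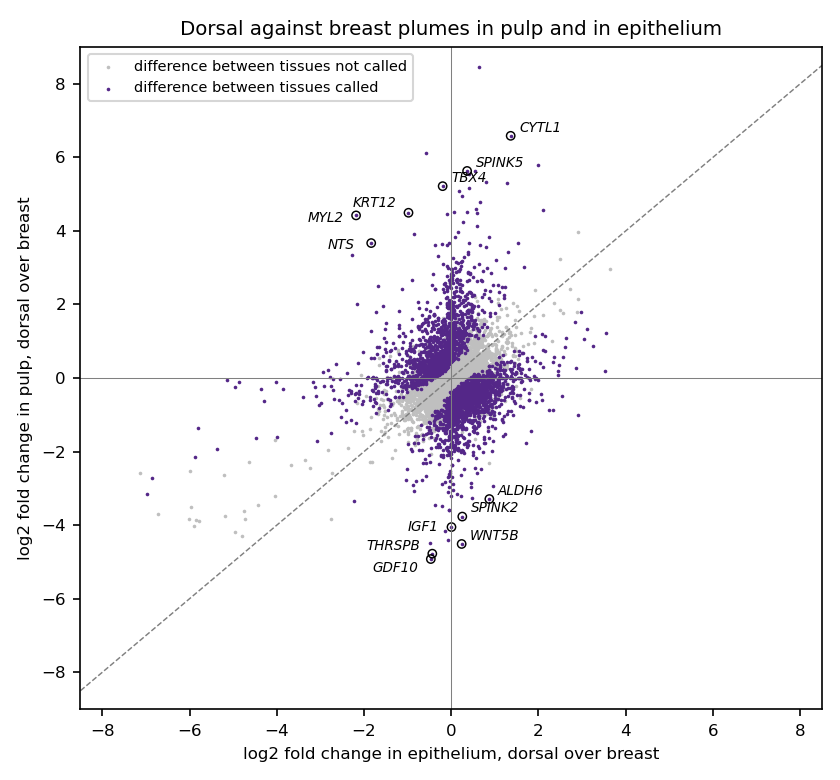
Log2 fold change of dorsal over breast plumes in pulp (vertical axis) and in epithelium (horizontal axis) for 13246 genes, with the dashed line where both are equal and purple for the 3002 genes whose tissue difference passed the test. The circled genes were named for the largest such differences, among them MYL2 with 4.42 in pulp and -2.18 in epithelium, and CYTL1 lies farthest right of those that rose, at 1.36 in epithelium.

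Pulp of the wing flight feather was sequenced from its lateral and medial sides, and those values can be set beside the plume values without a test, since the tables were normalised separately. Among the 30 genes with the largest plume changes, 5 differed by at least 1 log2 unit in the same direction between lateral and medial pulp, 1 in the opposite direction, and 24 by less. Of the 13226 tested genes with a value there, 1.29% differed by at least 1 log2 unit in either direction. The 30 genes were picked above 25 TPM in plume pulp and the 13226 were not, so these are unlike sets. MBP was among the 5, with 21.4 and 22.9 TPM in lateral and 4.38 and 2.65 TPM in medial remige pulp. GDF10 was at 48.6 and 22.3 TPM in lateral and 72.8 and 79.9 TPM in medial remige pulp and CBLN2 at 0.805 and 5.37 TPM in lateral and 0 and 0 TPM in medial remige pulp. TBX5, TBX4 and ALX1 were low on both sides of the wing feather. TBX5 was at 0.0586 and 0.0212 TPM in lateral and 0.0183 and 0.0219 TPM in medial remige pulp, and TBX4 at 0.385 and 1.06 TPM in lateral and 0.0961 and 0.635 TPM in medial remige pulp. ALX1 was at 0.889 and 0.7496 TPM in lateral and 1.42 and 0.735 TPM in medial remige pulp. HOXC10 was at 5.74 and 4.35 TPM in lateral and 9.13 and 6.42 TPM in medial remige pulp.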

How the data were processed

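RNA from the pulp and epithelium of growing feathers was sequenced as 50 bp single reads. Trimming and mapping to galGal4 were done by the authors in Partek Flow, with further steps in Partek Genomics Suite (TopHat2 is also named in the submitters' processing notes). They deposited RPKM per gene and a total alignment count per library. Versions, annotation, strand and the handling of multiply mapped reads are not given in the sources used here, so paralogues and overlapping genes may share reads. The deposited RPKM was rescaled to a sum of 1000000 (TPM). It is no read count, so no count model was used. Genes averaging 1 TPM or more in any plume group entered limma 3.58.1 (R 4.3.3) on log2(TPM + 1), with 4 group means over 8 plume libraries, trend and 4 residual degrees of freedom. The pseudocount understates changes of low genes. In simulated data the fit found 83% of 2-fold and 98% of 4-fold changes. These changes were set in 200 of 13111 genes, all above 25 TPM, with independent noise. The noise of a gene had the same spread in all 4 groups. The simulation therefore does not cover lower genes or differences in cell make-up between libraries. Nor does it cover spreads that differ between pulp and epithelium, or a larger share of changed genes.

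The labels give each group a batch I and a batch II library, which pairs the numbers. Deviations of same-numbered libraries correlated at only 0.045 between dorsal and breast pulp and at 0.004 to 0.117 over the other pairs of groups. The fit without the batch block is reported. With the replicate block 4053 genes were called in pulp.

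Genes were named by rule: the 15 largest changes each way above 25 TPM, up to 4 per role in 32 gene lists, genes the study names, the 6 largest tissue differences each way and the leading markers. Of these 230 genes 207 were called. Rules and lists were chosen with earlier results of these data known. Lists were matched through RefSeq symbols and synonyms, so a listed name may differ from the current one. Columns of 21 gene names turned into dates, genes without a symbol, COL1A1, ACTA2 and PECAM1 were not analysed here by name. Precision rests on 2 libraries a group.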

Additional observations from a re-analysis of the deposited data

Results flagged for a closer look

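The tract contrast differed between pulp and epithelium by limma's test of that difference, with 1452 genes higher and 1550 lower in the pulp contrast. The differences below are pulp minus epithelium on the log2 scale, each with dorsal over breast in both tissues. They were positive for MYL2 (6.60), NTS (5.50), KRT12 (5.47), TBX4 (5.41), SPINK5 (5.27) and CYTL1 (5.22). They were negative for WNT5B (-4.75), GDF10 (-4.45), THRSPB (-4.34), ALDH6 (-4.16), IGF1 (-4.06) and SPINK2 (-4.02). MYL2, NTS and KRT12 were lower in dorsal than in breast epithelium and higher in dorsal than in breast pulp.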

How the results depend on the processing

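The direction of every named gene that was called held under the alternatives tried: over 230 genes, 0 values reversed, 217 lost and 54 gained a call, and 4450 kept their side of the threshold. No called gene had pulp libraries that overlapped between the tracts. Leaving out a library or changing the pseudocount therefore could not reverse a called gene, and the lack of reversals there is no support. The count of 3735 pulp calls became 2055 at a minimum of 25 TPM, where 6427 genes were tested, and ranged over 2086 to 4177 with single libraries left out. It was 3035 with a pseudocount of 0.1, 4057 with a pseudocount of 5 and 3048 with the pulp libraries alone. The count of 3002 tissue differences became 1682 at a minimum of 25 TPM and ranged over 1803 to 2952 with single libraries left out. With the replicate block, that is, with the batch number pairing the libraries, 4053 pulp genes were called. Among named genes the block gained CDH5, LAPTM5 and PDGFRB, lost RHAG and SCUBE3 and changed no other call. Of the list medians 611 moved by less than the spread and 60 by more. The cause of these changes was not tested, except that a higher minimum tests fewer genes. Values rest on 2 libraries a group, 1 for each batch.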
